A study of Mus musculus with 2 samples.

Results

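The genes described here encode 10 enzymes of branched-chain amino acid (BCAA) catabolism, *Bcat2*, *Bckdha*, *Bckdhb*, *Dbt*, *Dld*, *Bckdk*, *Ivd*, *Mccc1*, *Acad8* and *Hibadh*. They were found on the arrays by their symbols or older aliases among the probes that are not controls. All 10 were measured, out of 13606 genes tested in all. None was called higher or lower in *Gde5* skKO muscle, where 3.31% of all genes were called, so 0 of 10 is near the background. The log2 ratios of 7 of the 10 had opposite directions on the arrays, beside 45.6% of all genes.

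RNA came from gastrocnemius (GAS) muscle of male C57BL/6 mice aged 15 weeks on a normal diet, and WT and *Gde5* skKO RNA were compared on 2 two-colour Agilent arrays. In *Gde5* skKO mice a Cre transgene under the human α-skeletal actin promoter removes a loxP-flanked exon of *Gde5* (*Gpcpd1*, a glycerophosphocholine phosphodiesterase), so that the other cells of the muscle keep the gene. The control is labelled WT, and the study's methods name *Gde5* flox/flox littermates as controls for other experiments without saying which controls the arrays held. *Gde5* skKO RNA carried Cy5 on array 1 and Cy3 on array 2. The series' design text names 5 mice, and neither pooling, nor a glucose load or fast, nor whether both arrays held the same RNA is stated there or in the labels. The paper describes muscle arrays made after a glucose injection and data from fasted mice, and which of these states the present arrays hold is not known, which applies to every ratio below.

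Leucine, isoleucine and valine are broken down in mitochondria, and skeletal muscle is a main site of their first step, a reversible transamination that hands the amino group to 2-oxoglutarate. The resulting branched-chain keto acids are committed to oxidation by the branched-chain keto acid dehydrogenase (BCKDH) complex, which a dedicated kinase inhibits by phosphorylation. The acyl-CoA products then follow separate routes for leucine, isoleucine and valine toward acetyl-CoA, ketone bodies or succinyl-CoA.

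Every value below is a log2 ratio of *Gde5* skKO over WT, or, where so named, a processed signal, which is a spot's brightness in arbitrary units after background subtraction and dye normalization. A gene was called where the p-value of the scanner software, Feature Extraction, was under 0.05 on both arrays with the same direction. That p-value covers the error of spots within a hybridization only, mouse-to-mouse spread is not in it, and precision is limited by having 2 arrays. Of all genes tested, 3.31% were called, 1.57% higher and 1.73% lower, against 0 of the 10 BCAA enzymes in either direction. The share of spots well above background lay between 44.6% and 53.2% over the 4 channels. Each gene is given by its brightest probe, that with the highest mean log2 signal over the 4 channels, and all 10 of these probes were well above background in all 4 channels. Of 18 probes for the 10 genes, 17 passed the filter, each printed as 1 spot. As a check of the labels, 3 of the 4 probes for *Gpcpd1* had ratios between -2.59 and -3.29 on both arrays. The other *Gpcpd1* probe had ratios of -0.05 and -0.47, and it ranked first in mean log2 signal over the 4 channels, though not in the WT channels.

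**Figure D1:**
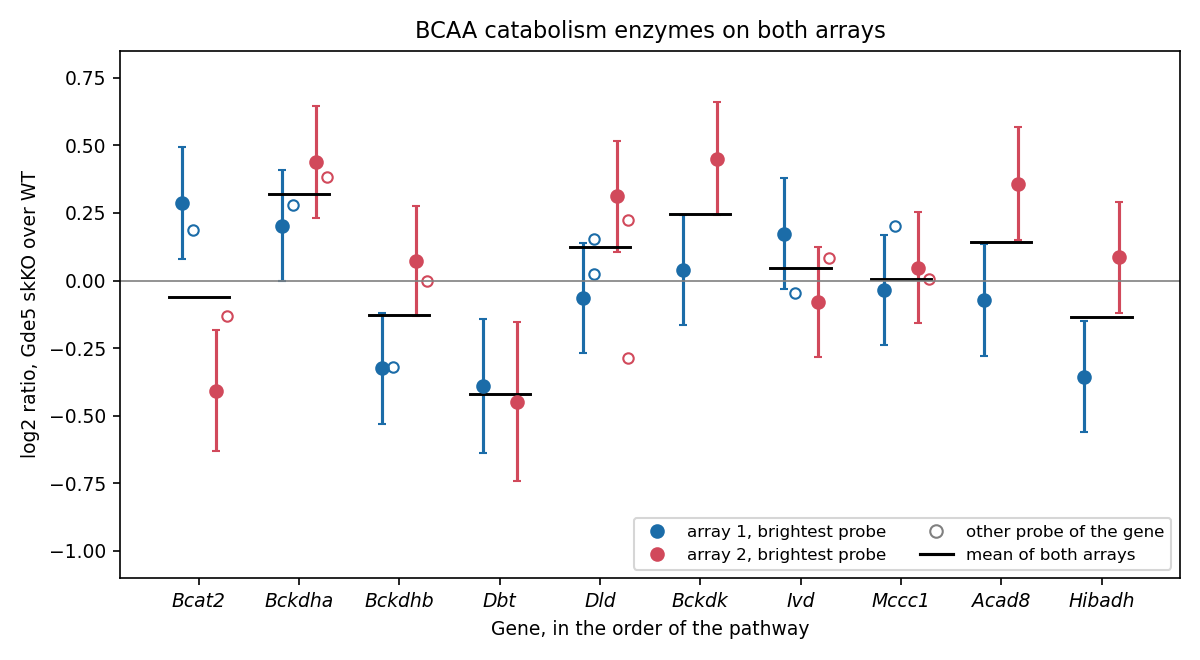
Log2 ratio of *Gde5* skKO over WT (vertical axis) for the 10 BCAA enzymes in pathway order (horizontal axis). Filled points are the brightest probe on array 1 (blue) and array 2 (red) with the Feature Extraction error as bars, open points are further probes that passed the filter, and black lines are means of both arrays. Only *Bckdha* and *Bckdk* lay above 0, and only *Dbt* below 0, with the brightest probe on both arrays.

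*Bcat2*, the mitochondrial aminotransferase that opens the pathway in muscle, had a ratio of 0.29 on array 1 and -0.41 on array 2. Its processed signals were 154 in WT and 188 in *Gde5* skKO muscle on array 1, and 317 and 239 on array 2. The genotype with the higher signal thus changed with the array. The mean was -0.06, with an error of 0.15 from the Feature Extraction errors of both arrays. The probe lies on chromosome 7 of the mouse assembly mm8, from 45456395 to 45456528 on the plus strand. A second probe, from 45457440 to 45457499, gave 0.19 and -0.13, the same change of direction. Its remaining probe, from 45443876 to 45443935, was not well above background in any channel and is not used.

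The decarboxylase of BCKDH is built from *Bckdha* and *Bckdhb* products. *Bckdha*, which encodes the subunit that the kinase phosphorylates, had ratios of 0.20 on array 1 and 0.44 on array 2. Its signals were 11087 in WT and 12766 in *Gde5* skKO muscle on array 1, and 11612 and 15738 on array 2, so that *Gde5* skKO muscle was the brighter on both. The Feature Extraction p-value was 0.32 on array 1 and 0.035 on array 2, which left *Bckdha* uncalled. The mean was 0.32, or 1.25-fold, and its 95% interval from the same errors ran from 0.03 to 0.61. A mean at least as far from 0 was seen in 16.1% of all genes. The second *Bckdha* probe gave similar values of 0.28 and 0.38. The probes lie on chromosome 7 (mm8, minus strand), from 25338835 to 25338894 for the brighter and from 25342018 to 25342077 for the other.

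Across all genes, limma's moderated test on background-corrected and loess-normalized ratios gave *Bckdha* a mean of 0.31 with an SE of 0.11, an unadjusted p of 0.022 and a Benjamini-Hochberg adjusted p of 0.44. *Bckdha* was the 1 member of the 10 with an unadjusted limma p under 0.05, beside 8.52% of all genes. The adjusted p-values of the other 9 lay at 0.72 or above. Here and below, limma's p-values cover only the spread between the hybridizations. These may hold the same RNA, so the p-values are no test across mice.

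*Bckdhb*, which encodes the partner subunit, had ratios of -0.32 on array 1 and 0.07 on array 2, with a mean of -0.13 and an error of 0.15. Its signals were 2623 in WT and 2094 in *Gde5* skKO muscle on array 1, and 2576 and 2706 on array 2. *Gde5* skKO muscle was dimmer on array 1, while the arrays' WT signals were close to each other. Its second probe reported nearly the same pair of values, -0.32 and -0.00. Both probes lie on the plus strand of chromosome 9 (mm8), from 83918978 to 83919037 for the brighter and from 83919063 to 83920708 for the other, whose coordinates span 1646 bases and so cross an intron.

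*Dbt* encodes the acyltransferase core of BCKDH and had the lowest mean of the 10 enzymes. Its ratios were -0.39 on array 1 and -0.45 on array 2, with Feature Extraction p-values of 0.12 and 0.13. Its signals were 197 in WT and 151 in *Gde5* skKO muscle on array 1, and 155 and 113 on array 2. The arrays were close to each other here, but the signals were low and the error of the mean, 0.19, was the largest of the 10. The mean was -0.42, or 0.75-fold, with an interval from -0.80 to -0.04. A mean at least as far from 0 was seen in 9.2% of all genes. An interval that excluded 0 was found for 2 of the 10 enzymes, *Bckdha* and *Dbt*, and for 14.3% of all genes. The mean of *Dbt* depended on the processing. Limma's normexp correction with loess gave -0.19 (limma adjusted p = 0.72), and loess without background correction gave -0.16. Which step moved the value was not tested. *Dbt* had a single probe, on the plus strand of chromosome 3 (mm8) from 116541101 to 116541160, so no further probe bears on it.

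*Dld* encodes the dihydrolipoamide dehydrogenase that BCKDH shares with the pyruvate and 2-oxoglutarate dehydrogenases. Its brightest probe gave -0.07 on array 1 and 0.31 on array 2, with a mean of 0.12 and an error of 0.14. The signals were 13843 in WT and 13229 in *Gde5* skKO muscle on array 1, and 12583 and 15612 on array 2. A nearby probe gave 0.03 and 0.22. The third, whose coordinates span 4754 bases, went the other way with 0.15 and -0.29. The probes of *Dld* therefore did not share a direction on either array. They lie on the minus strand of chromosome 12 (mm8), from 31917944 to 31918005, from 31918080 to 31918139 and from 31930950 to 31935703.

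The ratios of *Bckdha*, *Bckdhb* and *Dbt* were set against each other within each array. *Bckdha* exceeded *Bckdhb* by 0.53 on array 1 and 0.37 on array 2, a mean difference of 0.45 with an interval from 0.04 to 0.85. *Bckdha* exceeded *Dbt* by 0.59 and 0.89, a mean difference of 0.74 with an interval from 0.27 to 1.21, and by 0.50 on average with normexp and loess. Between *Bckdhb* and *Dbt* the mean difference was 0.29, and its interval from -0.18 to 0.76 included 0. The ratio of *Bckdha* thus lay above those of *Bckdhb* and *Dbt* on both arrays. That of *Bckdhb* lay above that of *Dbt* by 0.06 on array 1 and 0.52 on array 2. *Dld*, also a component of BCKDH, was not among the pairs compared, so *Bckdha* was not set apart from the whole complex. The intervals of the pairs cover only the error of spots within a hybridization, not the spread between the arrays. They were not adjusted for the 5 pairs compared and carry the limit of *Dbt*'s dim probe. The pairs were not planned before the values were seen. *Bckdha* and *Dbt* had the highest and the lowest mean of the 10 enzymes, so their difference was the largest among the 10. Every pair compared held *Bckdha* or *Dbt*, so no interval of a pair, here or below, is a test.

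*Bckdk* encodes the kinase that inhibits BCKDH. It had ratios of 0.04 on array 1 and 0.45 on array 2, with Feature Extraction p-values of 0.85 and 0.030. Its signals were 4914 in WT and 5045 in *Gde5* skKO muscle on array 1, and 4342 and 5935 on array 2. The genotypes were thus nearly level on array 1 and apart on array 2. The mean was 0.24, with an interval from -0.04 to 0.53. With normexp and loess the arrays differed in direction, at -0.30 and 0.56, around a mean of 0.13 (limma adjusted p = 0.999). The mean of *Bckdk* differed from that of *Bckdha* by -0.08, with an interval from -0.48 to 0.33, and exceeded that of *Dbt* by 0.66, with an interval from 0.19 to 1.14. With normexp and loess that last difference was 0.32, from -0.05 on array 1 and 0.68 on array 2, so it did not hold on array 1. Its probe lies on the plus strand of chromosome 7 (mm8) from 127699434 to 127699493.

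**Figure D2:**
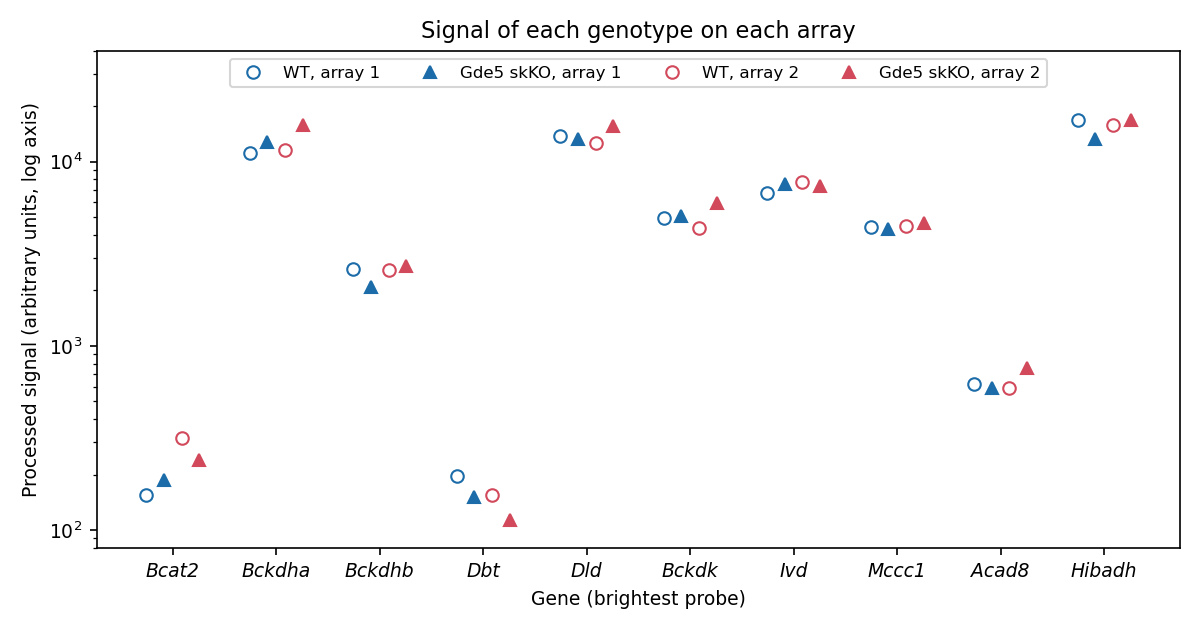
Processed signal (vertical log axis, arbitrary units) of the brightest probe of each BCAA enzyme (horizontal axis), with circles for WT, triangles for *Gde5* skKO, blue for array 1 and red for array 2. Heights of different genes cannot be compared because each probe has its own brightness; within a gene, the *Gde5* skKO triangle lay above the WT circle on both arrays for *Bckdha* and *Bckdk* and below it on both for *Dbt*.

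*Ivd* and *Mccc1* serve the leucine route beyond BCKDH. *Ivd*, the dehydrogenase of isovaleryl-CoA, had ratios of 0.17 on array 1 and -0.08 on array 2. Its signals were 6742 in WT and 7600 in *Gde5* skKO muscle on array 1, and 7788 and 7375 on array 2. The mean was 0.05 with an error of 0.14, and the second probe gave the opposite pattern of -0.05 and 0.08. The probes lie on the plus strand of chromosome 2 (mm8), from 118572703 to 118572762 and from 118571974 to 118572033.

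*Mccc1* encodes the biotin-carrying subunit of methylcrotonyl-CoA carboxylase, which acts after *Ivd*. It had the mean nearest to 0, at 0.01, with -0.03 on array 1 and 0.05 on array 2. Its signals were 4391 in WT and 4288 in *Gde5* skKO muscle on array 1, and 4467 and 4617 on array 2. The interval of the mean ran from -0.28 to 0.29, which is 0.83-fold to 1.22-fold, and a change within it was not detectable here. The second, dimmer probe of *Mccc1* gave 0.20 and 0.00. The probes lie on the minus strand of chromosome 3 (mm8), from 36151426 to 36151485 and from 36167403 to 36168218.

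On the valine route, *Acad8*, the dehydrogenase of isobutyryl-CoA, had ratios of -0.07 on array 1 and 0.36 on array 2, with Feature Extraction p-values of 0.73 and 0.085. Its signals were 623 in WT and 593 in *Gde5* skKO muscle on array 1, and 588 and 754 on array 2. The mean was 0.14 with an error of 0.15. *Hibadh*, which oxidizes 3-hydroxyisobutyrate further down the route, showed -0.36 on array 1 and 0.09 on array 2, with Feature Extraction p-values of 0.086 and 0.67. Its signals were 16906 in WT and 13217 in *Gde5* skKO muscle on array 1, and 15896 and 16869 on array 2. For both genes array 2 gave the higher ratio. Their mean ratios, 0.14 and -0.13, lay on opposite sides of 0. The probe of *Acad8* lies on the minus strand of chromosome 9 (mm8) from 26724563 to 26724622, and that of *Hibadh* on the minus strand of chromosome 6 from 52475965 to 52476024.

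Over the 10 enzymes the median of the mean ratios was 0.03, beside 0.01 over all genes tested. The means ran from -0.42 to 0.32, and 6 of the 10 were above 0. The median was -0.05 on array 1, where 4 of the 10 were above 0, and 0.08 on array 2, where 7 were. A Feature Extraction p-value under 0.05 was reached by 0 of the 10 on array 1 and by 2, *Bckdha* and *Bckdk*, on array 2. Over all genes those shares were 12.2% and 13.9%. Opposite directions on the arrays, seen in 7 of the 10, were seen in 45.6% of all genes.

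The arrays lay further apart for these enzymes than was usual for genes within the enzymes' range of signal. The median difference between the arrays was 0.39 over the 10 enzymes, while it was 0.18 over the 9423 genes within the enzymes' range of signal. That range is broad and genes were not matched in brightness, so this is a description without a test. The dyes were swapped between the arrays, so a difference between arrays cannot be told apart from an effect of the dyes. Across the 10 intervals the lowest bound was -0.80, for *Dbt*, and the highest 0.61, for *Bckdha*, or 0.58-fold and 1.52-fold.

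**Figure D3:**
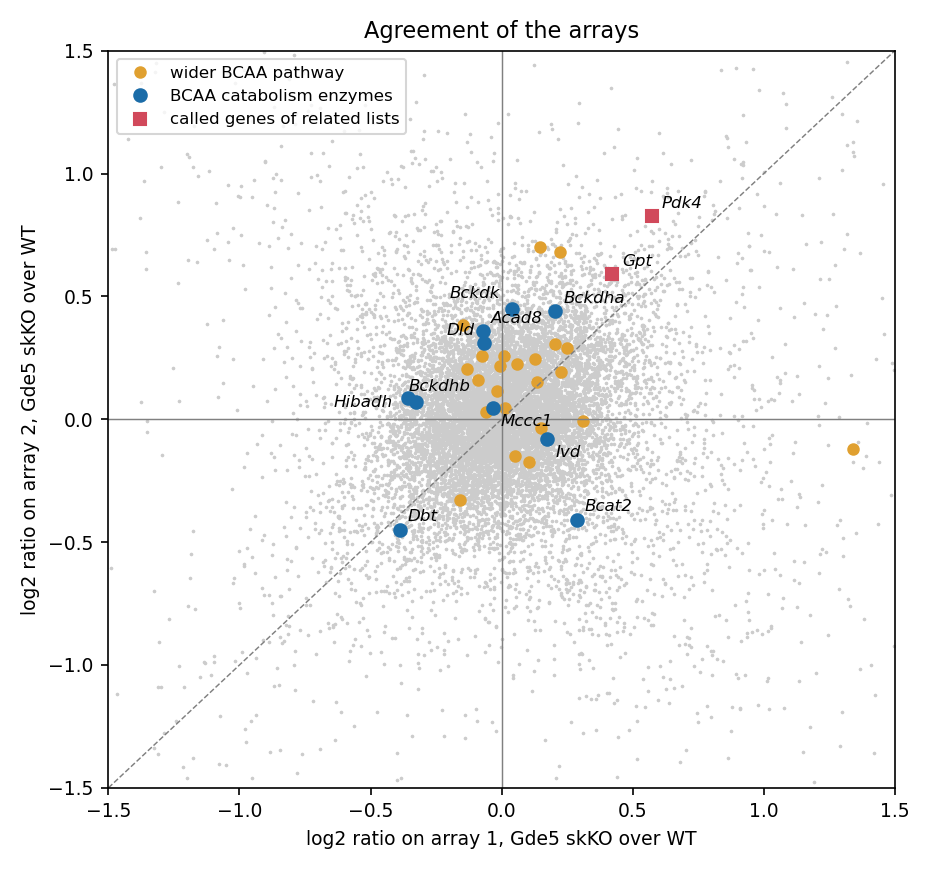
Log2 ratio of *Gde5* skKO over WT on array 1 (horizontal axis) and array 2 (vertical axis) for genes tested (grey), the BCAA enzymes (blue), the wider BCAA pathway (orange) and the called genes *Pdk4* and *Gpt* (red squares). The dashed line marks equal ratios, 235 genes lie outside the axes, and 7 of the 10 enzymes lie in quadrants of opposite direction.

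The wider pathway was described from a list of 25 further genes, of which 23 were measured. None was called higher and none lower. The median was 0.12, with 0.06 on array 1 and 0.19 on array 2, and the moderated-test ratios had a median of 0.07. On both arrays 10 of the 23 were above 0 and 1, *Oxct1*, below. Among the 13606 genes tested, 3970 were above 0 and 3436 below 0 on both arrays, and the difference between these shares was not tested. *Oxct1*, which activates ketone bodies for use in muscle, was the lowest, with -0.16 on array 1 and -0.33 on array 2. The highest mean was that of *Abat*, a transaminase that also acts on a product of valine, but its 1.34 on array 1 and -0.12 on array 2 disagreed, and its signal was not well above background in every channel. The direct partner of *Mccc1*, *Mccc2*, gave 0.01 and 0.05, and the BCKDH phosphatase *Ppm1k* gave 0.05 and -0.15; both were chosen for their role, after their values were seen.

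Among the sister complexes of BCKDH, the pyruvate, 2-oxoglutarate and 2-oxoadipate dehydrogenases and the glycine cleavage system, 8 of 10 genes were measured, and 0 were called. Their median was 0.17. The highest, *Ogdh* of the 2-oxoglutarate dehydrogenase, had 0.24 on array 1 and 0.44 on array 2, and the lowest, *Dhtkd1* of the 2-oxoadipate dehydrogenase, had -0.38 and 0.28.

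Among the kinases of the pyruvate dehydrogenase, which are relatives of *Bckdk*, and its phosphatases, 1 of 6 measured genes was called. *Pdk4*, a kinase that inhibits pyruvate dehydrogenase, rose in *Gde5* skKO muscle, by 0.57 on array 1 and 0.83 on array 2. Its signals were 23834 in WT and 35431 in *Gde5* skKO muscle on array 1, and 17214 and 30511 on array 2. The genotypes were apart on both arrays, and the mean of 0.70, or 1.62-fold, had an interval from 0.40 to 1.00 (limma adjusted p = 0.025). The lowest of this list, the phosphatase *Pdp1*, had -0.15 and -0.53. The probe of *Pdk4* lies on the minus strand of chromosome 6 (mm8) from 5433441 to 5433500.

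Among 7 enzymes that receive or pass on the amino group after *Bcat2*, 1 was called. *Gpt*, the cytosolic alanine aminotransferase, rose in *Gde5* skKO muscle, by 0.42 on array 1 and 0.59 on array 2, with Feature Extraction p-values of 0.043 and 0.0052. Its signals were 1976 in WT and 2643 in *Gde5* skKO muscle on array 1, and 2064 and 3107 on array 2. The mean was 0.50, or 1.42-fold, with an interval from 0.21 to 0.80, and the limma adjusted p was 0.12. The lowest was *Glul*, the glutamine synthetase, with -0.32 and -0.58, and the median of the 7 was -0.11. The probe of *Gpt* lies on the plus strand of chromosome 15 (mm8) from 76526592 to 76526722.

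Of 6 regulators linked to the pathway, 5 were measured and 0 were called. *Ppargc1a*, a coactivator of oxidative metabolism, was the highest with 0.57 on array 1 and 0.30 on array 2. *Klf15*, a transcription factor known to control amino acid catabolism in muscle, was the lowest with -0.05 and -0.40. Over the 5 related lists together 2 of 49 measured genes were called, both higher, beside 3.31% of all genes tested, and the median of the 49 was 0.13. The share called is near the background.

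**Figure D4:**
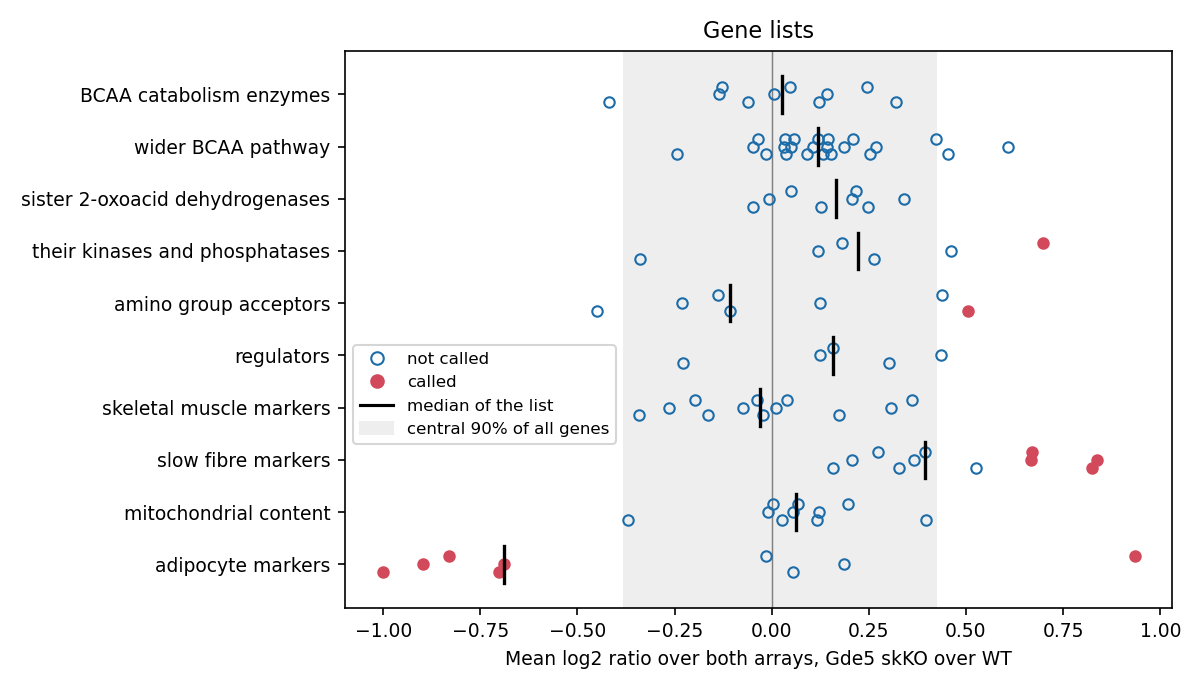
Mean log2 ratio of *Gde5* skKO over WT over both arrays (horizontal axis) for each gene of the lists named on the vertical axis, with filled red points for called genes, open points for the others, black lines for medians and a grey band for the central 90% of all genes. The BCAA enzymes centre on a median of 0.03, the slow fibre markers on 0.40 and the adipocyte markers on -0.69.

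Some markers of other cells and fibres differed between the genotypes, where 1.57% of all genes were called higher and 1.73% lower. Of 11 slow fibre markers, 4 were called higher (*Myl2*, *Tnni1*, *Csrp3* and *Casq2*). Their limma adjusted p-values were 0.012, 0.052, 0.015 and 0.098, in this order. The summed signal of the list was higher in *Gde5* skKO muscle by 0.51 on array 1 and 0.45 on array 2. *Myh7* of this list, with a mean of 0.33, was not called. By qPCR the paper found fibre type mRNAs to be comparable in both genotypes. The fibre type genes among its listed primers are *Myh7*, *Myh2*, *Myh1* and *Myh4*, so none of the 4 called genes is among them. Of 9 measured adipocyte markers, 5 were called lower (*Adipoq*, *Plin1*, *Cfd*, *Retn* and *Cidec*) and 1, *Car3*, which muscle fibres also express, higher. The limma adjusted p was 0.021 for *Adipoq*, 0.013 for *Cfd* and 0.0058 for *Car3*. It was 0.31 for *Plin1*, 0.33 for *Retn* and 0.096 for *Cidec*. With normexp and loess the means of *Plin1* and *Retn* moved from -0.69 to -0.33 and from -0.83 to -0.34. *Fabp4* (0.05), *Lipe* (0.19) and *Pparg* (-0.01) were not called, and *Lep* was not well above background. The summed signal of the adipocyte list, unlike its median, was higher in *Gde5* skKO muscle by 0.40 on array 1 and 0.28 on array 2. *Car3* alone had signals of 21232 in WT and 42553 in *Gde5* skKO muscle on array 1, and 22125 and 40332 on array 2. The whole list summed to 65717 and 86518 on array 1, and to 67946 and 82235 on array 2. The rise of the sum was thus no larger than that of *Car3* alone. The median of the adipocyte list was -0.69, or -0.33 with normexp and loess. The skeletal muscle markers, none of 12 called, had a median of -0.03 and the 10 genes of mitochondrial content, none called, one of 0.06. *Apoh* (liver) was called higher, with a mean of 0.81, and *Kap* (kidney) lower, with a mean of -1.82. With normexp and loess these means were 0.34 (limma adjusted p = 0.27) and -0.73 (limma adjusted p = 0.025). The 5 measured liver markers had a median of -0.24, and the other measured kidney marker, *Aqp2*, was at 0.07. No other liver, kidney, blood, endothelial or fibroblast marker was called. The blood, endothelial and fibroblast lists had medians of -0.18, 0.02 and -0.03. The part of fibre type and of adipocytes in the ratios of the BCAA enzymes was not tested, and fewer cells of a type and less RNA per cell cannot be told apart in whole muscle.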

How the data were processed

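The authors scanned 2 dye-swapped Agilent whole mouse genome arrays and extracted them with Feature Extraction 9.5.3.1. For every spot the deposited files hold a log10 ratio (Cy5 to Cy3, background-subtracted and dye-normalized), a p-value from the software's error model, and, in each channel, the intensity of spot and background. The log10 ratio also stands in the deposited series table, to fewer digits.

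Here ratios were put on the log2 scale, given the direction *Gde5* skKO over WT by the dyes in the labels, and averaged over both arrays. Control spots, outliers (164 and 200 of 43379 spots) and spots beside debris (11 and 0) were left out. A gene was tested where, on both arrays, a probe of it had a channel well above background, and the brightest probe stood for the gene. All 10 members were named, with the called, highest and lowest genes of each related list and the called genes of the marker lists. The members and lists were chosen with earlier results of these data known. The intervals were chosen after the values were seen and combine the Feature Extraction errors of both arrays at 95%. The spread between the arrays is not in them.

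Alternatives were normexp (offset 50) with loess in limma 3.58.1 (R 4.3.3), loess alone, the series table, all probes, other filters and thresholds, the methods' t-test on the channel signals, limma's moderated test, and single arrays. The steps ran in Python 3.11.15 with pandas 2.3.3 and were tested on simulated data. The arrays share 1 slide and 1 scan. Probe coordinates were taken from the arrays' own annotation (mm8).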

Additional observations from a re-analysis of the deposited data

How the results depend on the processing

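The number of BCAA enzymes called was 0 in either direction under every alternative except 2. Array 2 alone called *Bckdha* and *Bckdk* higher, so that single arrays gave 0 to 2 called higher and 0 called lower, and 1, *Bckdha*, passed an unadjusted p of 0.05 in limma's moderated test. The smallest adjusted p of the 10 was 0.44 and, with loess alone, 0.43. *Mccc1* was the only one of the 10 to change sign under 7 settings that kept both arrays, in 2 of them. The wider pathway had 1 to 2 genes called higher on a single array, 3 with the unadjusted moderated test and 1 with the methods' t-test. Over all genes, single arrays called 929 to 970 higher and 725 to 915 lower. A stricter Feature Extraction p of 0.01 gave 107 and 127, adjustment within each array 50 and 76, and the moderated test 39 and 70 after adjustment and 578 and 581 before. The methods' t-test gave 617 and 572, and 0 and 0 after Benjamini-Hochberg adjustment. It was run unpaired on the channels, so it leaves out the pairing of genotypes within an array, and the channels may be technical repeats. The paper names this test for comparisons of 2 groups in general, not for the arrays. *Gpcpd1* was at -2.33 as a mean over its probes and at -2.93 with the probe brightest in WT, an alternative chosen after seeing the data. Slide as a block was not run because both arrays share 1 slide. The number of arrays limited what could be detected, and *Dbt*, with low signals, had the largest error of the 10.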
